A study of Homo sapiens with 8 samples.

Results

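The 9 genes described here encode the WNT5 ligands and the cell-surface proteins that take part in WNT signalling without beta-catenin. They are the ligands WNT5A and WNT5B, the receptor kinases and pseudokinases ROR1, ROR2 and RYK, the Frizzled receptors FZD2 and FZD7, and the planar polarity proteins VANGL1 and VANGL2. They were picked by name, with earlier results of these data known, from the 58302 genes of the expression tables. Of the 9, 8 had a mean of at least 1 FPKM (fragments per kilobase, scaled to library size). That floor left 13899 genes for testing. WNT5B is included because of its response to sorafenib and dipyridamole given together, so its values under the drugs are a description and carry no test.

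All libraries came from SK-Hep1, an established human line from a liver tumour, grown in the same medium. One set of 4 libraries came from SK-Hep1 cells with ectopic expression of SLC29A2, an equilibrative nucleoside transporter (SLC29A2 cells), and the other set of 4 from SK-Hep1 with the control genotype (control cells). Within each set, 1 library each was made from cells given sorafenib and dipyridamole (both drugs), sorafenib alone, dipyridamole alone, or the control treatment. Sorafenib is a multikinase inhibitor whose targets include RAF and VEGF receptors, and dipyridamole blocks nucleoside transporters and phosphodiesterases. The labels used here do not state the doses, the times, the vehicle, the promoter that drives SLC29A2, or whether the SLC29A2 cells are 1 clone or a pool.

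WNT ligands are lipid-modified secreted proteins. WNT5A and WNT5B are the best known ligands of the branches that do not stabilise beta-catenin: they bind Frizzled receptors together with ROR1, ROR2 or RYK and signal through Dishevelled to small GTPases, the JNK cascade and actin (the planar polarity branch) or to intracellular calcium. VANGL proteins are four-pass membrane proteins of the planar polarity core, known as Van Gogh or Strabismus in the fly. In liver tumours these branches are known chiefly for their part in cell movement and invasion.

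The 8 libraries held 14.07 to 16.69 M reads, recovered from the step size of the FPKM values, so 1 read in a gene of 2 kb was worth 0.03 to 0.0355 FPKM. SLC29A2 averaged 2149 ± 650.6 FPKM in SLC29A2 cells and 7.56 ± 0.317 FPKM in control cells (SD, n = 4 libraries each), as the labels state. Of the markers checked, 5 of 6 mesenchymal and 3 of 6 epithelial genes reached a mean of 1 FPKM, against 1 of 9 endothelial, 1 of 8 hepatocyte and 1 of 6 leukocyte genes. EMCN, TTR, APOB, CD3E and LYZ were listed at 0 in every library. The highest single genes of the last 3 lists were TIE1 (0.895 to 5.02 FPKM) for endothelium, SERPINA1 (1.73 to 5.64 FPKM) for hepatocytes and CD14 (0.113 to 2.02 FPKM) for leukocytes. The 3 epithelial genes that reached the mean were the keratins KRT8, KRT18 and KRT19. EPCAM (0 to 0.338 FPKM), CDH1 (0 to 0.164) and CLDN4 (0.0531 to 1.24) did not, nor did the mesenchymal CDH2 (0.0335 to 0.173). The control-cell libraries given dipyridamole, alone or with sorafenib, stood apart. Non-coding genes took 2.29% of their recovered reads with both drugs and 1.99% with dipyridamole alone, against 1.40% to 1.63% in the other libraries. They also listed more genes above 0, with 24801 and 23766 against 22613 to 23514. For the members, results are therefore also given without these 2 libraries where the call changes. For the other pathway genes named below they are not given, so an unchanged call should not be assumed there. In bulk RNA, fewer cells with a transcript and less of it per cell cannot be told apart.

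The order of the members by mean FPKM over the 8 libraries was WNT5B (553.5 FPKM), FZD2 (148.7), RYK (36.0), ROR2 (15.8), FZD7 (12.3), WNT5A (9.14), VANGL1 (8.91), ROR1 (3.02) and VANGL2 (0.0252). The ranges of ROR2 and FZD7, of FZD7 and WNT5A, and of WNT5A and VANGL1 overlapped over the 8 libraries, and those of the other neighbours did not. Within each library, however, ROR2 was above FZD7 and FZD7 above WNT5A in 8 of 8, whereas WNT5A was above VANGL1 in 4 of 8. FPKM divides by 1 length per gene, here the mean of its annotated transcripts (1115.8 bases for WNT5B, 2307.3 for WNT5A and 3748.2 for VANGL1), so the levels of different genes depend on that length.

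**Figure D1:**
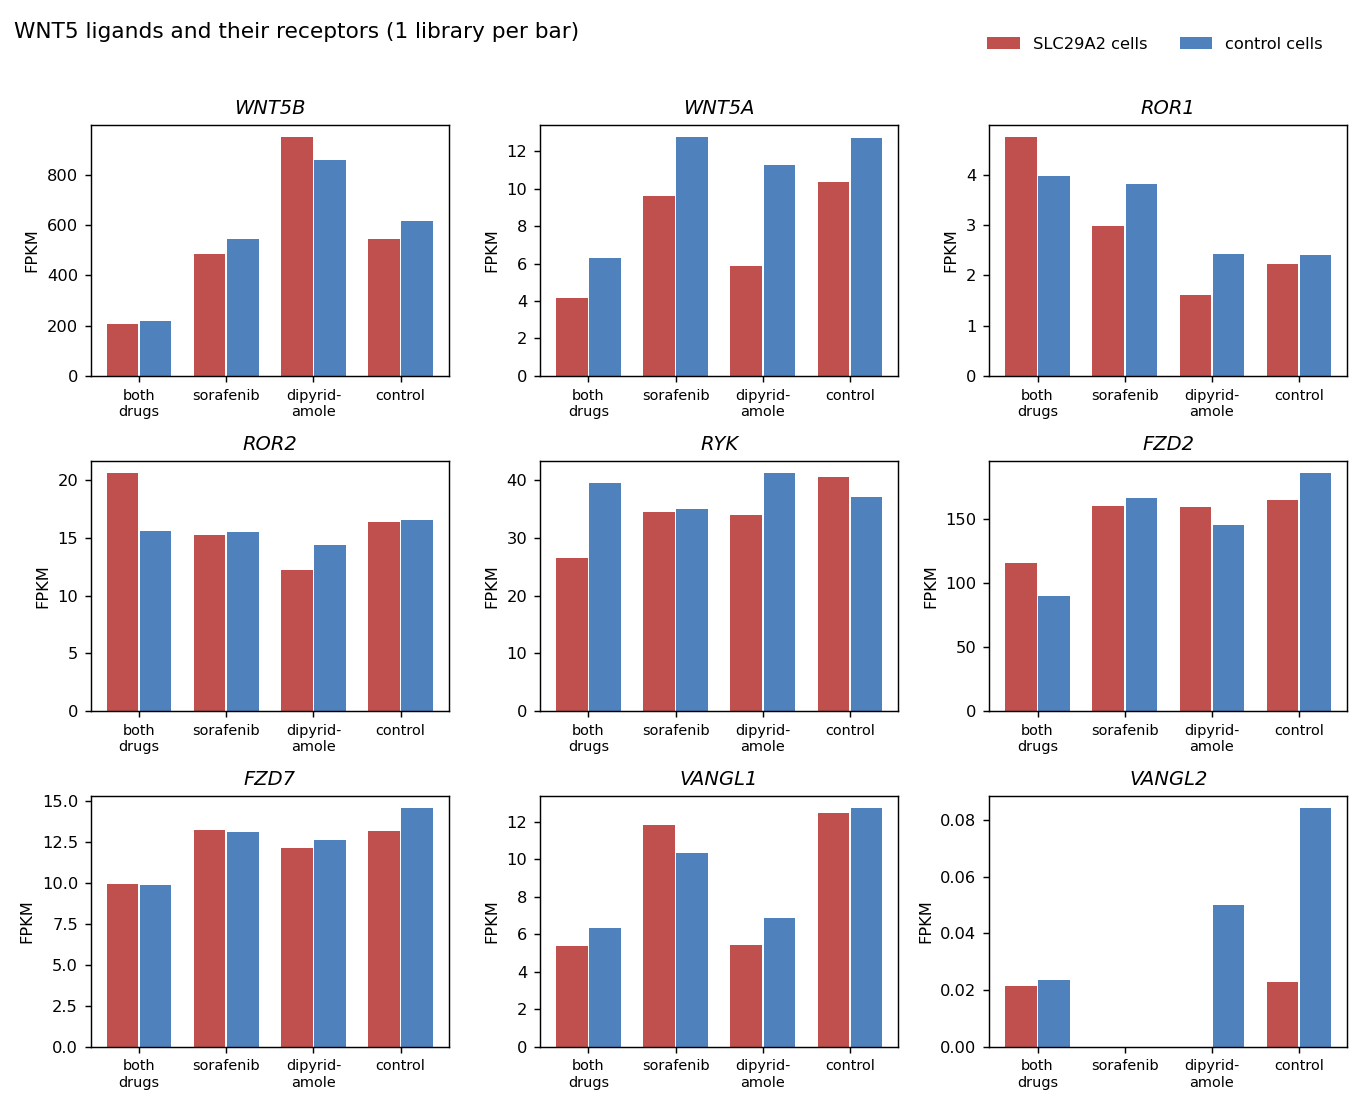
FPKM of the 9 genes in each library, with both drugs, sorafenib, dipyridamole and control treatment along the horizontal axis, SLC29A2 cells as the left bar and control cells as the right bar of each pair, 1 library per bar and a separate vertical scale per gene. WNT5B is lowest with both drugs (206 and 219 FPKM) and highest with dipyridamole alone (949.7 and 859.8 FPKM), VANGL1 is low in all 4 libraries given dipyridamole, and VANGL2 stays under 0.1 FPKM.

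WNT5B (ENSG00000111186, chromosome 12, 1529891 to 1647243, plus strand, GRCh38) had 206 FPKM with both drugs, 485 with sorafenib, 949.7 with dipyridamole and 546 with control treatment in SLC29A2 cells. In control cells it had 219 FPKM with both drugs, 545 with sorafenib, 859.8 with dipyridamole and 618 with control treatment. These values rest on 3654 to 17159 recovered reads per library, so counting error is small beside the differences. In both kinds of cell the combination gave the lowest value and dipyridamole alone the highest, and no value with both drugs came within the range of the other 6 libraries. On the log2(FPKM + 1) scale used throughout, both drugs differed from control treatment by -1.40 in SLC29A2 cells and -1.49 in control cells, which is 2.65- and 2.83-fold lower in FPKM. Sorafenib alone differed from control treatment by only -0.17 and -0.18 in the same cells, while dipyridamole alone differed by 0.80 and 0.48. Set against dipyridamole alone, both drugs gave -2.20 in SLC29A2 cells and -1.97 in control cells. The interaction of the drugs in the linear model was -1.91 (log2), again without a test. These contrasts are those by which the gene was chosen and share their control libraries. For comparison, 2.37% of all genes tested were higher with dipyridamole in both pairs without sorafenib and lower in both pairs with it. The values with both drugs, for which the gene was chosen, enter this pattern, so the share lends it no support.

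WNT5B and WNT5A each have a pair of RefSeq start sites, and the 250 bases before each start are shown because both ligands were lower with both drugs than with control treatment. The windows are in the direction of transcription on GRCh38.p14, and capitals mark GGGCGG, the GC box of SP1, or its reverse complement.

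WNT5B start 1, chr12:1616806-1617055, plus strand: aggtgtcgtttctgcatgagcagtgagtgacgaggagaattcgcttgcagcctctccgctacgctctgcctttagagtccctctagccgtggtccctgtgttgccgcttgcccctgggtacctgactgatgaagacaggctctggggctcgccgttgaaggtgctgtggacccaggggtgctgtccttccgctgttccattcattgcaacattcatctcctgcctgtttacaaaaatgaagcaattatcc

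WNT5B start 2, chr12:1628981-1629230, plus strand: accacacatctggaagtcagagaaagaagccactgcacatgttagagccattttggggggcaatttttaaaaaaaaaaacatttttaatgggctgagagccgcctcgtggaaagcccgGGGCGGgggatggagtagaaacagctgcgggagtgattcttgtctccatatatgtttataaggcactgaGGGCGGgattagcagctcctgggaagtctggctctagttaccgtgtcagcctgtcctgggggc

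WNT5A start 1, chr3:55487307-55487556, minus strand: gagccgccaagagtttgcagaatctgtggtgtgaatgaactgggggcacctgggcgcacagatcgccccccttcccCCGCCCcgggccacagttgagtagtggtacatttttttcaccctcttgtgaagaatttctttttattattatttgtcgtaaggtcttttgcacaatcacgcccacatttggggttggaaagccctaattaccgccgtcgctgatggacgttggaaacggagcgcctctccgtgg

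WNT5A start 2, chr3:55481399-55481648, minus strand: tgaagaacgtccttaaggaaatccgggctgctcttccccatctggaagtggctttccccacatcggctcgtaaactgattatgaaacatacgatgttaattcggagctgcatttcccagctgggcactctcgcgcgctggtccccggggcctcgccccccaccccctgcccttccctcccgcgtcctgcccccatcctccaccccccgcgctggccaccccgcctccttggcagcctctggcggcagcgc

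The GC content of these windows was 54.8% and 50.8% for WNT5B and 52.8% and 64.4% for WNT5A, beside a median of 58.0% over the 35116 RefSeq promoters. The windows of ROR1, ROR2, RYK, VANGL1 and VANGL2 were richer, with 69.2% to 78.0%. FZD2 and FZD7 were not matched, so 7 of 9 members have a window. GGGCGG was found 2 times in the second WNT5B window and 1 time in the first WNT5A window, and 42.6% of all promoters hold it on either strand. None of the 4 windows held the letters TGANTCA of AP-1 (in 6.57% of promoters), TGACGTCA of CREB (1.65%), CTTTGAT of TCF/LEF (2.26%), CCGGAAG of ETS (8.52%), GGAATG of TEAD (11.9%) or CCAAT (32.0%), read on both strands. A match describes the letters in the window and nothing more.

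An opposite-strand gene, FBXL14 (1565993 to 1594165), lies inside the WNT5B gene span without sharing an exonic base, and it did not follow WNT5B. Both WNT5B start sites shown above lie beyond it, so it overlaps only the longer annotated span. FBXL14 had 37.5 FPKM with both drugs and 17.2 with dipyridamole in SLC29A2 cells, and 29.3 and 15.2 FPKM in control cells, its highest and lowest values in each. Over the 8 libraries the genes most like WNT5B by Pearson correlation of log2(FPKM + 1) were RGMB (r = 0.979), AL139246.5 (r = 0.976), CYR61 (r = 0.974), AC139149.1 (r = 0.972) and SHC1 (r = 0.968), and the 8 points share the same libraries and depth. RGMB, a co-receptor of bone morphogenetic proteins, had 34.2 FPKM with both drugs, 87.7 with sorafenib, 157.5 with dipyridamole and 88.1 with control treatment in SLC29A2 cells, against 47.2, 91.1, 177 and 99.1 FPKM in control cells in the same order. CYR61, a secreted matricellular protein of the CCN family, had 542 FPKM with both drugs and 1806 with dipyridamole in SLC29A2 cells, against 734 and 2017 FPKM in control cells. SHC1, an adaptor of receptor tyrosine kinases, was also lowest with both drugs, at 188 FPKM in SLC29A2 cells and 169 FPKM in control cells. With dipyridamole alone SHC1 had 401 FPKM against 336 with control treatment in SLC29A2 cells, but 341 against 349 in control cells. These genes were picked for their likeness to WNT5B in these same libraries, so the shared low value with both drugs follows largely from that choice.

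WNT5A (ENSG00000114251, chromosome 3, 55465715 to 55490539, minus strand) was far lower than WNT5B and fell with dipyridamole. It had 4.15 FPKM with both drugs, 9.63 with sorafenib, 5.89 with dipyridamole and 10.4 with control treatment in SLC29A2 cells. In control cells it had 6.31 FPKM with both drugs, 12.7 with sorafenib, 11.3 with dipyridamole and 12.7 with control treatment. The 4 libraries given dipyridamole (4.15 to 11.3 FPKM) overlapped the 4 without it (9.63 to 12.7 FPKM) through the control-cell library given dipyridamole alone. Unlike WNT5B, WNT5A was lower with dipyridamole alone than with control treatment in both kinds of cell. The antisense gene WNT5A-AS1 lies on the opposite strand and shares no exonic base with WNT5A, and whether counting used strand is not given. It had 3.39 FPKM with both drugs, 8.70 with sorafenib, 3.58 with dipyridamole and 7.15 with control treatment in SLC29A2 cells. In control cells WNT5A-AS1 had 3.34 FPKM with both drugs, 10.6 with sorafenib, 6.25 with dipyridamole and 11.0 with control treatment.

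Among the receptors that pair with WNT5 ligands, ROR1 and ROR2 are receptor tyrosine kinase-like proteins with an extracellular Frizzled-like domain. ROR1 (ENSG00000185483, chromosome 1, 63774022 to 64181498, plus strand) had 4.75 FPKM with both drugs, 2.99 with sorafenib, 1.61 with dipyridamole and 2.22 with control treatment in SLC29A2 cells, and 3.97, 3.81, 2.43 and 2.40 FPKM in control cells in the same order. All 4 libraries given sorafenib (2.99 to 4.75 FPKM) lay above all 4 without it (1.61 to 2.43 FPKM). ROR2 (ENSG00000169071, chromosome 9, 91563091 to 91950162, minus strand) stood several-fold higher in FPKM. Part of that gap comes from the lengths used, 1704.2 bases for ROR2 and 3599.8 for ROR1. ROR2 had 20.6 FPKM with both drugs, 15.2 with sorafenib, 12.2 with dipyridamole and 16.4 with control treatment in SLC29A2 cells. In control cells ROR2 had 15.6 FPKM with both drugs, 15.5 with sorafenib, 14.4 with dipyridamole and 16.6 with control treatment. The highest and the lowest ROR2 value were thus both from SLC29A2 cells, with both drugs and with dipyridamole alone. Dipyridamole gave lower ROR2 without sorafenib and higher ROR2 with it in both kinds of cell, a pattern shown by 5.24% of all genes tested, although the rise with sorafenib in control cells was 0.01.

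RYK (ENSG00000163785, chromosome 3, 134065303 to 134250744, minus strand), a receptor with a WNT-binding domain and an inactive kinase domain, had 26.5 FPKM with both drugs, 34.4 with sorafenib, 34.0 with dipyridamole and 40.4 with control treatment in SLC29A2 cells. In control cells RYK had 39.4 FPKM with both drugs, 35.0 with sorafenib, 41.3 with dipyridamole and 37.0 with control treatment. Its drug-treated values lay below control treatment in SLC29A2 cells and on either side of it in control cells. The pseudogene RYKP1, which could take up reads of RYK, was listed at 0 to 0.111 FPKM.

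FZD2 and FZD7 are seven-pass receptors of the same Frizzled subfamily. FZD2 (ENSG00000180340, chromosome 17, 44557459 to 44559570, plus strand), the second most abundant member, had 116 FPKM with both drugs, 161 with sorafenib, 159 with dipyridamole and 165 with control treatment in SLC29A2 cells. In control cells FZD2 had 89.8 FPKM with both drugs, 166 with sorafenib, 146 with dipyridamole and 187 with control treatment. The 4 libraries given dipyridamole (89.8 to 159 FPKM) lay below the 4 without it (161 to 187 FPKM), though by a narrow gap in SLC29A2 cells, and the values with both drugs were the lowest. FZD7 (ENSG00000155760, chromosome 2, 202034587 to 202038445, plus strand) had 9.90 FPKM with both drugs, 13.2 with sorafenib, 12.1 with dipyridamole and 13.1 with control treatment in SLC29A2 cells. In control cells FZD7 had 9.85 FPKM with both drugs, 13.1 with sorafenib, 12.6 with dipyridamole and 14.5 with control treatment. Its 4 values with dipyridamole also lay below the other 4, and those with both drugs were again lowest.

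VANGL1 (ENSG00000173218, chromosome 1, 115641953 to 115698224, plus strand) separated the libraries by whether they were given dipyridamole. It had 5.37 FPKM with both drugs, 11.8 with sorafenib, 5.41 with dipyridamole and 12.4 with control treatment in SLC29A2 cells. In control cells VANGL1 had 6.35 FPKM with both drugs, 10.3 with sorafenib, 6.85 with dipyridamole and 12.7 with control treatment. The 4 libraries with dipyridamole (5.37 to 6.85 FPKM) did not overlap the 4 without it (10.3 to 12.7 FPKM), and sorafenib on top of dipyridamole differed from dipyridamole alone by -0.01 in SLC29A2 cells and -0.10 in control cells. VANGL2 (ENSG00000162738, chromosome 1, 160400586 to 160428678, plus strand) was listed at 0 to 0.0842 FPKM, which is 0 to 4 reads per library. A count of 0 allows up to 3 reads, or 0.0651 to 0.0728 FPKM in the libraries that had it. VANGL2 was thus at or near the limit of detection in every library and was not tested.

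Dipyridamole, tested over 4 pairs of libraries that differed in it alone, lowered 3 of the 7 members that could be tested and raised none. The additive limma model called 30.0% of all 13899 genes, and 12.6% of all genes were called lower. VANGL1 fell by 0.88 ± 0.13 (log2 ± SE, adjusted p = 0.00141, limma with Benjamini-Hochberg adjustment over all genes tested), averaging 5.99 ± 0.727 FPKM with dipyridamole and 11.8 ± 1.06 FPKM without it (SD, n = 4 libraries each). WNT5A fell by 0.71 ± 0.16 (adjusted p = 0.0101), averaging 6.91 ± 3.06 FPKM with dipyridamole and 11.4 ± 1.61 FPKM without it. Both stayed past the threshold of 0.05 in all 8 refits that left out 1 library. FZD2 fell by 0.44 ± 0.14 (adjusted p = 0.0393), averaging 128 ± 31.0 FPKM with dipyridamole and 169.6 ± 11.5 FPKM without it. That call was lost in 6 of the 8 refits, all but those without the SLC29A2-cell libraries given control treatment or dipyridamole, with an adjusted p of up to 0.142 when the sorafenib library of control cells was left out. Without the 2 control-cell libraries that stood apart, FZD2 gave -0.26 (adjusted p = 0.207). FZD7 at -0.26 ± 0.11 did not pass (adjusted p = 0.106), except in the model with all interactions (adjusted p = 0.0245). Nor did RYK at -0.07 (adjusted p = 0.689), ROR2 at -0.04 (adjusted p = 0.857) or ROR1 at 0.07 (adjusted p = 0.781) pass. Groups that did not overlap, with all 4 dipyridamole libraries lower, were seen for 3 members (VANGL1, FZD2 and FZD7), beside 11.7% of all genes tested.

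Sorafenib passed the test for none of the 7 members, where limma called 8.11% of all genes. At an unadjusted p under 0.05 there were 2 members, ROR1 and FZD2, and limma-voom on the recovered reads called 1, ROR1. ROR1, with 3.88 ± 0.721 FPKM with sorafenib and 2.16 ± 0.379 FPKM without it (SD, n = 4 libraries each), gave 0.62 ± 0.17 (adjusted p = 0.0576). Over the alternatives run, the adjusted p of ROR1 spanned 0.0152 to 0.197, and it passed with limma-voom (0.019) and with all interactions in the model (0.0152). Its groups did not overlap, a pattern of higher values with sorafenib seen in 5.83% of all genes. FZD2 gave -0.34 ± 0.14 (adjusted p = 0.156) and WNT5A -0.32 ± 0.16 (adjusted p = 0.24), and each passed under 1 of the 14 alternatives, the model with all interactions (0.00841 and 0.0369), which has 1 residual degree of freedom. The effects of FZD7, RYK, ROR2 and VANGL1 lay between -0.18 and 0.16, with adjusted p of 0.336 to 0.62. WNT5B gave -1.13 ± 0.34 for sorafenib and -0.32 ± 0.34 for dipyridamole, without a test. Its 4 values with sorafenib (206 to 545 FPKM) lay just below its 4 values without it (546 to 949.7 FPKM), as in 2.14% of all genes. The gap lay between 545.3 FPKM in control cells given sorafenib and 545.6 FPKM in SLC29A2 cells given control treatment. The values with both drugs, for which the gene was chosen, enter this split, so the share lends it no support.

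**Figure D2:**
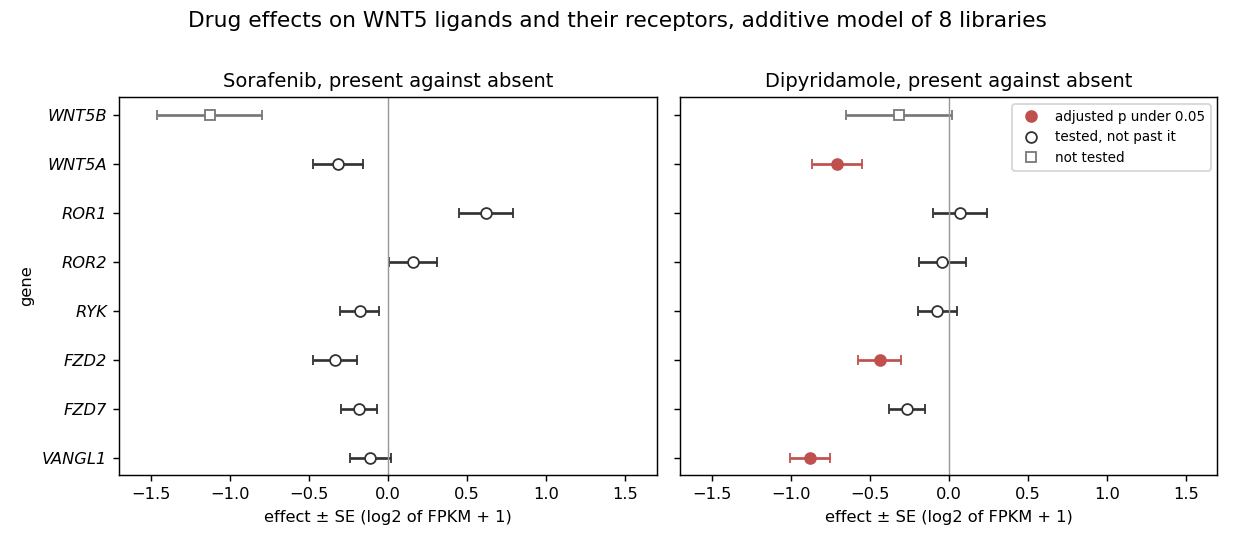
Effect of sorafenib (left) and of dipyridamole (right), present against absent, on the 8 measured members in log2 of FPKM + 1, with bars of 1 SE from the additive model of 8 libraries. Filled circles passed an adjusted p of 0.05, open circles did not, and the open square is WNT5B, which was not tested. VANGL1, WNT5A and FZD2 are lower with dipyridamole, and ROR1 has the highest sorafenib effect at 0.62.

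With both drugs, the members moved in different directions from control treatment, which is described without a test since there is 1 library per condition. WNT5A differed by -1.14 in SLC29A2 cells and -0.91 in control cells, VANGL1 by -1.08 and -0.90, FZD2 by -0.50 and -1.05, and FZD7 by -0.37 and -0.52. RYK differed by -0.59 in SLC29A2 cells and 0.09 in control cells, and ROR2 by 0.31 and -0.08. ROR1 was the member with a higher value in both, by 0.84 in SLC29A2 cells and 0.55 in control cells. Leaving out WNT5B, which was chosen on this contrast, 2 of 7 members were at least 2-fold lower on this scale in SLC29A2 cells (VANGL1 and WNT5A), beside 7.81% of all genes, and 1 of 7 in control cells (FZD2), beside 4.89%. The count in control cells depends on the scale. In plain FPKM, a scale added after the values were seen, WNT5A was 2.02-fold and VANGL1 2.01-fold lower in control cells too, which made 3 of 7 members there and left 2 of 7 in SLC29A2 cells. The median of all genes was 0.07 in SLC29A2 cells and 0.25 in control cells. When the libraries were rescaled by size factors, the control-cell differences became -1.77 for WNT5B, -1.15 for WNT5A, -1.14 for VANGL1, -1.32 for FZD2, -0.77 for FZD7, -0.34 for ROR2 and 0.34 for ROR1, and RYK changed sign to -0.18. On that scale too, 3 of 7 members were at least 2-fold lower in control cells (FZD2, VANGL1 and WNT5A).

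The interaction of sorafenib and dipyridamole, which asks whether the drugs together differ from the sum of each, was past the threshold for none of the 7 members tested, where 0.0863% of all genes were called. None of the 7 had an unadjusted p under 0.05 and limma-voom called none. The largest were WNT5A at -0.54 ± 0.25 (adjusted p = 0.412), ROR2 at 0.50 ± 0.24 (adjusted p = 0.421) and FZD2 at -0.47 ± 0.22 (adjusted p = 0.414). Without the 2 control-cell libraries given dipyridamole, ROR2 at 0.81 (adjusted p = 0.00379) and FZD2 at -0.35 (adjusted p = 0.0215) passed, in a fit where 3514 genes did so against 12 with all libraries. That fit has 6 libraries, 1 residual degree of freedom and a single library each with both drugs and with dipyridamole alone, so these p-values rest on single libraries assumed to vary like the rest. The median interaction of all genes was 0.11, and 0.00 after rescaling by size factors.

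SLC29A2 cells and control cells were not separated by any of the 8 measured members over 4 pairs of libraries matched for treatment, in a comparison where 0.00719% of all genes passed. Limma-voom also called none, and WNT5A alone had an unadjusted p under 0.05. It averaged 7.51 ± 2.98 FPKM in SLC29A2 cells and 10.8 ± 3.05 FPKM in control cells (SD, n = 4 libraries each), a difference of -0.50 ± 0.16 (adjusted p = 0.965) that was negative in 4 of 4 pairs, from -0.27 to -0.83. WNT5B averaged 547 ± 307 FPKM in SLC29A2 cells and 560.5 ± 265 FPKM in control cells, a difference of -0.07 ± 0.34 (adjusted p = 0.991). The interaction of cell type with dipyridamole was called for none of 7 members and for 0% of genes, although 2756 genes and 1 member, RYK, had an unadjusted p under 0.05. RYK gave -0.46 ± 0.17 (adjusted p = 0.206). Its differences with dipyridamole were -0.36 with sorafenib and -0.25 without it in SLC29A2 cells, and 0.16 and 0.15 in control cells. The median of this interaction over all genes was -0.14, and -0.01 after rescaling by size factors. The interaction of cell type with sorafenib was likewise called for none of 7 members and for 0% of genes. It had 100 genes and none of the members at an unadjusted p under 0.05, and limma-voom called 0 genes for either interaction.

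The rest of the pathway was taken from 7 lists of textbook members, and WNT5B is left out of their counts of calls. These lists, too, were chosen with earlier results of these data known. Of 19 WNT ligands, 5 had a mean of at least 1 FPKM, and of the 4 tested, sorafenib changed none while dipyridamole raised 1 and lowered 2. Over all genes, sorafenib raised 5.94% and lowered 2.17%, and dipyridamole raised 17.5% and lowered 12.6%. The median effects of the ligands were -0.15 for sorafenib and -0.36 for dipyridamole, against 0.09 and 0.07 over all genes. WNT11, a ligand of the planar polarity branch in vertebrate embryos, rose by 0.96 ± 0.16 with dipyridamole (adjusted p = 0.00276). It had 3.94 FPKM with both drugs, 1.60 with sorafenib, 2.92 with dipyridamole and 0.716 with control treatment in SLC29A2 cells, and 4.93, 1.98, 2.27 and 0.990 FPKM in control cells in the same order. WNT3, a ligand of the beta-catenin branch, fell by 0.68 ± 0.11 (adjusted p = 0.00287), with 23.5 to 33.5 FPKM in the 4 libraries given dipyridamole and 45.1 to 47.6 FPKM in the 4 without it. WNT11 thus went the opposite way to WNT5A, and all 3 calls held in every refit without 1 library. WNT10B, a further beta-catenin ligand, had 2.26 to 5.22 FPKM and no call.

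Of 17 Frizzled receptors and co-receptors, 12 were measured and sorafenib changed none, beside 8.11% of all genes. Dipyridamole raised 1 and lowered 2, beside 17.5% and 12.6% of all genes. FZD8 rose by 0.59 ± 0.16 (adjusted p = 0.0236) to 3.58 to 5.87 FPKM with dipyridamole, against 2.43 to 3.55 FPKM without it. LRP6, the co-receptor that carries WNT signals to beta-catenin, fell by 0.56 ± 0.15 (adjusted p = 0.0225) to 12.9 to 22.0 FPKM, against 22.4 to 27.0 FPKM. FZD2 is the other gene that fell. All 3 calls were lost in 5 or 6 of the 8 refits without 1 library, with an adjusted p of up to 0.0728 for FZD8 without the control-cell library given control treatment and 0.073 for LRP6 without the SLC29A2-cell library given sorafenib. LRP5, the close relative of LRP6, had 40.6 to 73.3 FPKM and gave -0.22 ± 0.14 (adjusted p = 0.279). The median effects of this list were -0.09 for sorafenib and -0.15 for dipyridamole, against the same medians over all genes.

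The planar polarity list, 22 of whose 27 genes were measured, moved in both directions. Sorafenib raised 2 and lowered none, beside 5.94% and 2.17% of all genes. Dipyridamole raised 6 and lowered 4, beside 17.5% and 12.6% of all genes. Median effects of the list were 0.25 for sorafenib and 0.18 for dipyridamole. CELSR1, an atypical cadherin of the polarity core, had 100.1 FPKM with both drugs, 41.4 with sorafenib, 57.1 with dipyridamole and 19.9 with control treatment in SLC29A2 cells. In control cells CELSR1 had 82.1 FPKM with both drugs, 44.4 with sorafenib, 47.4 with dipyridamole and 23.6 with control treatment. It rose by 0.87 ± 0.12 with sorafenib (adjusted p = 0.00606) and by 1.14 ± 0.12 with dipyridamole (adjusted p = 0.000292), so VANGL1 and CELSR1, both of the polarity core, changed in opposite directions with dipyridamole. DAAM1, a formin that links Dishevelled to RhoA and actin, rose by 0.99 ± 0.13 with sorafenib (adjusted p = 0.00495) and 0.65 ± 0.13 with dipyridamole (adjusted p = 0.00617). DAAM1 had 17.2 FPKM with both drugs and 5.12 with control treatment in SLC29A2 cells, against 19.2 and 5.20 FPKM in control cells. ANKRD6, the Dishevelled-binding protein known as Diversin, rose by 0.79 ± 0.16 with dipyridamole (adjusted p = 0.00688). The calls for these 3 genes and VANGL1 held in all 8 refits without 1 library. The abundant effectors RHOA (411 to 641 FPKM) and DVL1 (180.2 to 294 FPKM) did not pass for either drug. Only the 4 largest dipyridamole calls of this list are named, so genes of the list not named here may have passed too.

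Of 19 genes of the WNT calcium branch, 15 were measured. Sorafenib raised 2 and lowered 1, beside 5.94% and 2.17% of all genes. Dipyridamole raised 4 and lowered none, beside 17.5% and 12.6% of all genes. CAMK2D, a calcium- and calmodulin-dependent kinase, rose with each drug, by 0.54 ± 0.11 for sorafenib (adjusted p = 0.0233) and 0.54 ± 0.11 for dipyridamole (adjusted p = 0.00638). PRKCA, protein kinase C alpha, rose by 0.66 ± 0.13 with sorafenib (adjusted p = 0.0231), and NFATC4, a transcription factor of the calcineurin pathway at a mean of 1.39 FPKM, fell by 0.68 ± 0.17 (adjusted p = 0.0434). NFATC1, its relative, rose by 0.67 ± 0.17 with dipyridamole (adjusted p = 0.0163). The calcineurin catalytic subunits PPP3CC and PPP3CB rose by 0.50 ± 0.14 (adjusted p = 0.027) and 0.40 ± 0.11 (adjusted p = 0.0245). Of these, only the CAMK2D call for dipyridamole held in all 8 refits without 1 library. The highest adjusted p of the others was 0.124, for NFATC4 without the SLC29A2-cell library given dipyridamole. PLCB3 (32.4 to 39.8 FPKM) and CAMK2G (26.1 to 38.6 FPKM) did not pass for either drug. Median effects of the list were 0.25 for sorafenib and -0.01 for dipyridamole.

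**Figure D3:**
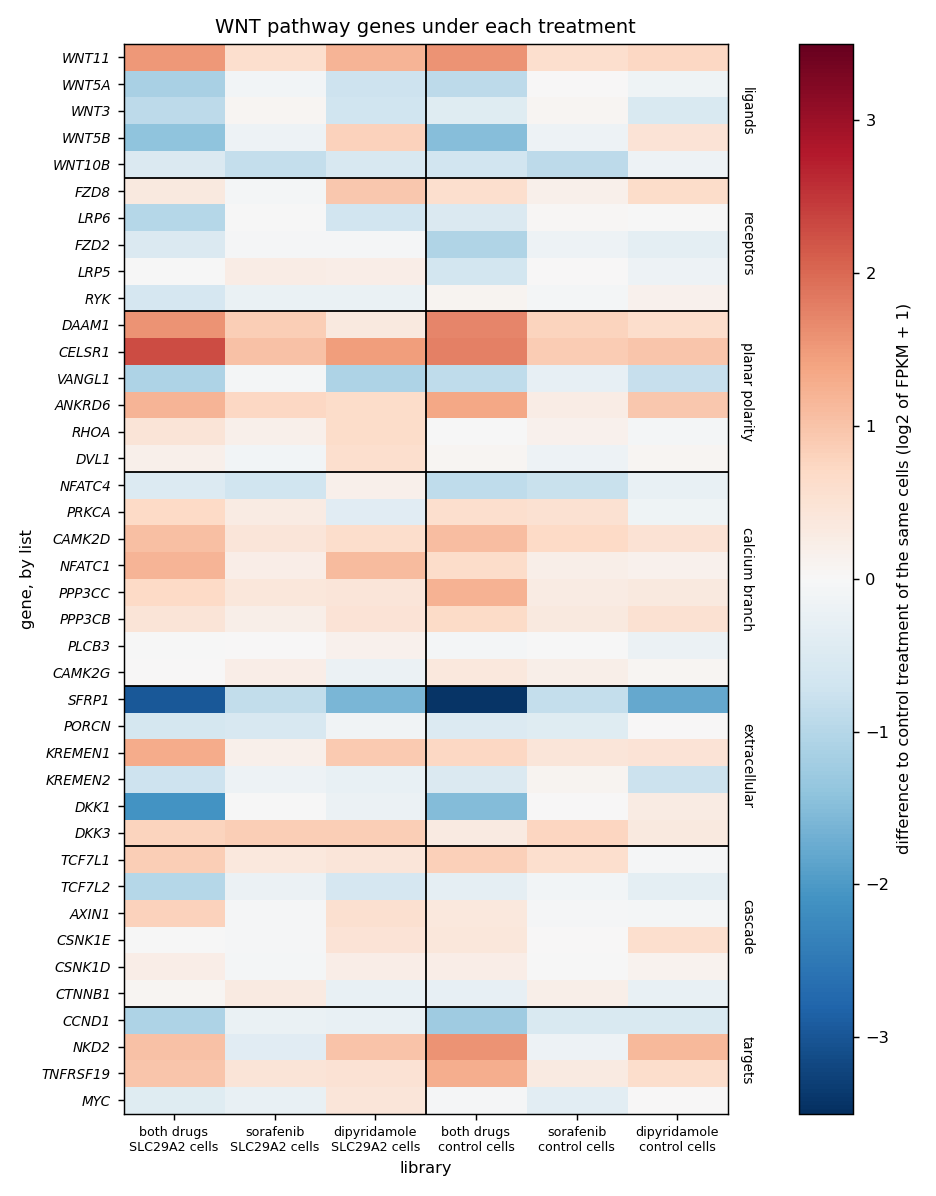
Difference in log2 of FPKM + 1 from control treatment of the same cells for the genes named from the 7 lists, with the libraries of SLC29A2 cells in the left 3 columns and those of control cells in the right 3, red for higher and blue for lower. SFRP1 is lowest with both drugs, WNT5B and DKK1 are blue chiefly with both drugs, and CELSR1, DAAM1 and WNT11 are red in every column.

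Secreted inhibitors, ligand processing and their receptors made up a list of 28 genes, 11 of them measured. Sorafenib raised none and lowered 2, beside 5.94% and 2.17% of all genes. Dipyridamole raised 1 and lowered 2, beside 17.5% and 12.6% of all genes. Median effects of the list were -0.18 for sorafenib and -0.11 for dipyridamole. SFRP1, a secreted protein that binds WNT ligands, had 43.3 FPKM with both drugs, 188 with sorafenib, 112 with dipyridamole and 343 with control treatment in SLC29A2 cells. In control cells SFRP1 had 32.1 FPKM with both drugs, 202 with sorafenib, 103 with dipyridamole and 357 with control treatment. It fell by 1.17 ± 0.16 with sorafenib (adjusted p = 0.00524) and by 2.02 ± 0.16 with dipyridamole (adjusted p = 7.46e-05), and both calls held in every refit without 1 library. PORCN, the acyltransferase that attaches the lipid to WNT ligands, fell by 0.49 ± 0.09 with sorafenib (adjusted p = 0.0194), at 28.6 to 33.2 FPKM with it and 40.3 to 49.2 FPKM without it. This call was lost in 5 of 8 refits, with an adjusted p of up to 0.0657 without the control-cell library given dipyridamole.

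DKK1, an inhibitor of LRP5 and LRP6 and also a beta-catenin target, was the most abundant gene of that list and shared the low value with both drugs seen for WNT5B. It had 228 FPKM with both drugs, 978 with sorafenib, 855 with dipyridamole and 984 with control treatment in SLC29A2 cells, against 251, 721, 878 and 720.5 FPKM in control cells in the same order. No effect of DKK1 passed, with -0.93 ± 0.34 for sorafenib (adjusted p = 0.12), -0.88 ± 0.34 for dipyridamole (adjusted p = 0.0763) and -1.85 ± 0.28 for their interaction (adjusted p = 0.12). KREMEN1, a receptor of DKK1, rose by 0.71 ± 0.17 with dipyridamole (adjusted p = 0.0126), while its relative KREMEN2 fell by 0.53 ± 0.14 (adjusted p = 0.0214), a call lost in 4 of 8 refits, with an adjusted p of up to 0.0794. DKK3, a divergent member of the DKK family, had 96.2 to 208 FPKM and no call.

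**Figure D4:**
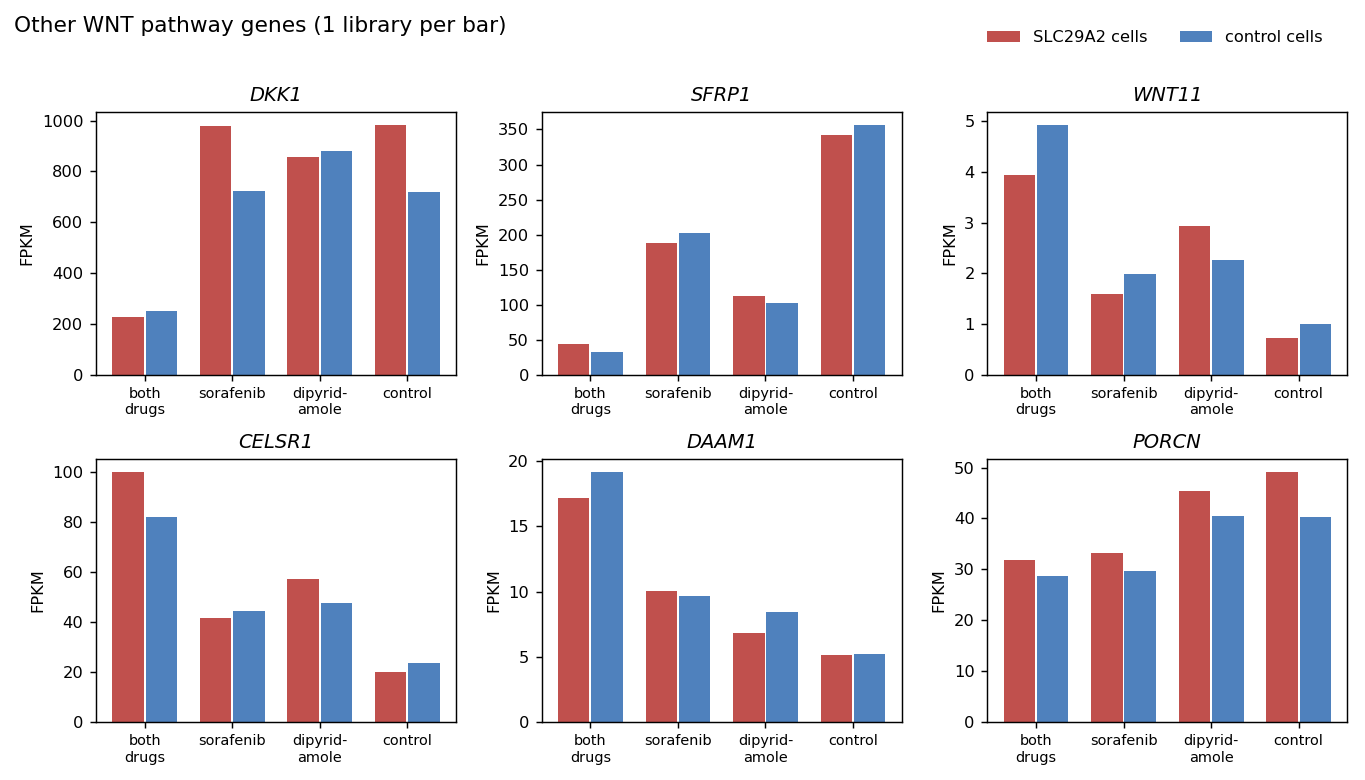
FPKM of 6 other genes of the pathway in each library, with both drugs, sorafenib, dipyridamole and control treatment along the horizontal axis, SLC29A2 cells as the left bar and control cells as the right bar, 1 library per bar and a separate vertical scale per gene. DKK1 is low with both drugs only (228 and 251 FPKM), SFRP1 is low with each drug and lowest with both, and CELSR1 and DAAM1 are highest with both.

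In the beta-catenin cascade all 16 listed genes were measured. Sorafenib raised 1 and lowered none, beside 5.94% and 2.17% of all genes. Dipyridamole raised 2 and lowered 1, beside 17.5% and 12.6% of all genes. Median effects of the list were 0.01 for sorafenib and 0.12 for dipyridamole. TCF7L1, a repressor among the TCF factors, rose by 0.56 ± 0.13 with sorafenib (adjusted p = 0.0343). With dipyridamole TCF7L2 fell by 0.48 ± 0.13 (adjusted p = 0.0245), and AXIN1, a scaffold of the destruction complex, rose by 0.44 ± 0.14 (adjusted p = 0.0437), as did CSNK1E, a casein kinase, by 0.36 ± 0.12 (adjusted p = 0.0433). Each of these 4 calls was lost in 6 of the 8 refits without 1 library, with an adjusted p of up to 0.14 for AXIN1. CTNNB1, beta-catenin itself, had 154 to 228 FPKM and gave -0.31 ± 0.11 with dipyridamole (adjusted p = 0.055), and CSNK1D (209 to 260.3 FPKM) did not pass for either drug.

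Of 15 beta-catenin target genes, 7 were measured. Sorafenib lowered 1 and raised none, beside 2.17% and 5.94% of all genes. Dipyridamole raised 2 and lowered 1, beside 17.5% and 12.6% of all genes. Median effects of the list were -0.29 for sorafenib and 0.01 for dipyridamole. NKD2, a feedback inhibitor that binds Dishevelled, rose by 1.33 ± 0.15 with dipyridamole (adjusted p = 0.000436), and TNFRSF19, at a mean of 1.14 FPKM, rose by 0.65 ± 0.17 (adjusted p = 0.0214). CCND1, cyclin D1, fell with each drug, by 0.57 ± 0.12 for sorafenib (adjusted p = 0.0281) and 0.59 ± 0.12 for dipyridamole (adjusted p = 0.00775). The NKD2 call and the CCND1 call for dipyridamole held in all 8 refits without 1 library, whereas CCND1 for sorafenib and TNFRSF19 were lost in 6 and 4, with an adjusted p of up to 0.102 and 0.0759. MYC had 105 to 189.6 FPKM and no call. Over all the genes named from the lists, 12 of 23 calls for dipyridamole and 3 of 9 for sorafenib held in all 8 refits.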

How the data were processed

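Poly(A) RNA was sequenced from 8 SK-Hep1 cultures, 1 per condition, with a kit whose strand setting is not stated, per the labels' protocols. The authors deposited a table of FPKM values for each library. GRCh38.p12 is the build in the submitters' processing notes, which also list edgeR, HTSeq 0.6.1 and TopHat2 2.0 but not what each was used for. Symbols and positions came from GENCODE 29 on GRCh38, which matched 58039 of 58302 genes. FPKM times mean transcript length gave whole reads, within 0.01 of a read, in 93.61% of cases, and reads were recovered for 29712 of 31432 expressed genes (94.53%). Limits set from reads allow for counting error and nothing else.

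The 13899 genes whose mean reached 1 FPKM were fitted as log2(FPKM + 1), which understates changes of low genes, with limma 3.58.1 in R 4.3.3 (mean-variance trend, two-sided, Benjamini-Hochberg adjustment over all of them, threshold 0.05). Its additive terms were sorafenib, dipyridamole and cell type, and pairwise interactions were added 1 at a time. No condition was replicated, so variation between cultures of the same condition was not estimated. The p-values set an effect against the residual spread of these 8 libraries around the model, moderated by the trend over all genes. That residual holds any interaction left out of the model, so an interaction of the drugs widens the error of their main effects. Pairs of single libraries carry no test.

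Alternatives were a pseudocount of 0.1, no filter on low values, size factors, limma-voom on the recovered reads, all 3 pairwise interactions at once, leaving out each library, and leaving out both control-cell libraries given dipyridamole. The fit was also run on simulated additive data with a sorafenib effect alone, which cannot check it where the drugs interact.

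The members and lists were chosen with earlier results of these data known. All members were named with their 8 values. From each list, genes past the threshold for either drug were named, up to 4 per effect by size, with the 2 of highest mean FPKM among the rest. The 5 genes most correlated with WNT5B were also named. RefSeq promoter windows were matched by symbol.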

Additional observations from a re-analysis of the deposited data

Results flagged for a closer look

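WNT5B was picked out because dipyridamole moved it in opposite directions with and without sorafenib in every pair. With sorafenib the dipyridamole differences were -1.23 in SLC29A2 cells and -1.31 in control cells, and without it 0.80 and 0.48 (log2), an interaction of -1.91. The gene was chosen for this response, so the difference was not tested.

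ROR2 showed the reverse pattern. Dipyridamole gave 0.41 in SLC29A2 cells and 0.01 in control cells with sorafenib, and -0.40 and -0.19 without it, an interaction of 0.50 (limma adjusted p = 0.421). Read the other way, sorafenib gave 0.71 in SLC29A2 cells and 0.11 in control cells with dipyridamole, and -0.10 and -0.09 without it, which is the same interaction of 0.50.

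For RYK the dipyridamole differences were -0.36 with sorafenib and -0.25 without it in SLC29A2 cells, and 0.16 and 0.15 in control cells, a difference of -0.46 between the kinds of cell (limma adjusted p = 0.206).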

How the results depend on the processing

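VANGL1 and WNT5A remained lower with dipyridamole past the threshold under all 14 alternatives (adjusted p 0.000231 to 0.0104 and 0.000852 to 0.0426), and FZD2 under 6 of 14 (0.00142 to 0.207, with 0.114 without the filter). No result changed sign past the threshold. Over all genes, sorafenib called 1127 genes, but 136 without the filter, 301 without both control-cell libraries given dipyridamole and 4839 with all interactions, a fit with 1 residual degree of freedom. With 1 library left out it called 272 to 914. Dipyridamole called 4173, but 2622 without the filter and 7411 with all interactions (2926 to 3641 with 1 library left out). The interaction of the drugs called 12, but 0 with a pseudocount of 0.1, 0 without the filter, 25 with size factors, 24 with limma-voom, 3514 without both control-cell libraries given dipyridamole (also 1 residual degree of freedom), and 0 to 2 with 1 library left out. The cell effect called 1 to 2 with 1 library left out. The interaction of cell type with dipyridamole called 0 to 1 with 1 library left out and could not be fitted without both control-cell libraries given dipyridamole, where that with sorafenib called 2. Size factors changed the calls for sorafenib to 478 higher and 470 lower, against 825 and 302, and those for dipyridamole to 2079 and 2205, against 2428 and 1745. With both drugs in control cells, they gave 1254 genes at least 2-fold higher, against 1980, and 1077 lower, against 680. For single genes, 880 values stayed the same, 132 lost the threshold, 7 gained it and 59 moved. Same means an unchanged sign and side of the threshold or, for values without a test, a shift of less than 1 SE. Moved means a change of sign with no call in either fit or, for values without a test, a larger shift. The cause of these shifts was not tested. No paired analysis was possible because the labels give every library the same replicate number, which leaves no replicate block, and pairs of libraries matched for the other factors are already what the additive model compares.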
